A study of Mus musculus with 8 samples.

Results

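This comparison asked how phagocytes from wild-type hosts differed from phagocytes of B cell-deficient hosts when both antibody treatments were averaged. All 8 libraries of the study took part, 4 from each host, and the antibody was kept as a blocking factor. A gene belonged to the shared host difference when WT minus muMT had the same sign under each antibody taken alone. That held for 10506 of 16608 tested genes (63.3%), and 5412 of these also passed the test of the average difference.

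Mice carried GL261-mCherry-EGFP, a mouse glioma line marked with fluorescent proteins, in the brain. On day 23 after implantation, living immune cells with CD45.2 on the surface and tumour mCherry inside were sorted as phagocytes. Hosts were C57BL/6 wild type (WT) or muMT, which have a disrupted membrane exon of the IgM heavy chain and lack mature B cells. Each host received an isotype IgG or an anti-CTLA-4 antibody, which gave 4 groups of 2 libraries, both antibodies in both hosts. All groups shared the tumour line, the day and the sort. The labels give no age, do not say if a library came from 1 mouse or from pooled mice, and name no C57BL/6 substrain. The p-values therefore measure the spread between these libraries, which may be technical, and the muMT allele cannot be told apart from other genetic or housing differences between the hosts.

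CTLA-4 is an inhibitory receptor of T cells, and its blockade releases T cells that can make interferon-gamma. Macrophages and microglia answer interferon-gamma with guanylate-binding proteins, the chemokines that call T cells, and the machinery that loads peptides on MHC class I. They also bind antibody made by B cells through Fc receptors and take up the coated material. The gate on tumour mCherry means that phagocytes without it were not collected. Because the sorted cells held tumour material, RNA of the tumour cells cannot be told apart from that of the phagocytes.

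Correlations between libraries of a group were at least 0.996 across genes. The 18 pan-phagocyte genes summed to 21459.8 to 25713 CPM (counts per library size after TMM scaling) in WT and 24355 to 25035 in muMT, and Ptprc, which encodes CD45, differed by 0.10 ± 0.06 (log2, SE, adjusted p = 0.198). Depth and library make-up moved with the host. Reads in genes were 24784639 to 27900880 in WT and 29466171 to 31289104 in muMT. Reads that mapped uniquely but to no gene took 28.4% to 33.3% of uniquely mapped reads in WT and 18.6% to 20.8% in muMT. The means were 31.1% and 19.6%, and an exact two-sided permutation test within antibodies gave p = 0.0556, the smallest it can give. Multimapping reads were 4.51% to 6.08% of mapped reads in WT and 8.03% to 9.26% in muMT. The same exact permutation test gave p = 0.0556 for these and for the reads in genes. Their part in the results that follow was not tested.

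The host labels could not be read from Ighm, the IgM heavy chain gene altered in muMT, because no library had a read on it. A separate entry, Igh, named for the heavy chain locus, did have reads, at a mean of 4.13 CPM. It was called higher in WT (0.81 ± 0.17, log2, SE, edgeR adjusted p = 0.00657), with 0.59 under isotype and 1.04 under anti-CTLA-4. Which part of the locus that entry covers is not given. Jchain, whose product links secreted antibody into polymers, had 33, 49, 62 and 73 reads in the WT libraries against 0, 0, 0 and 2 in muMT. That is a ratio of 123 with a 95% counting interval from 33.6 to 1019. The CD20 gene Ms4a1 had 4, 5, 20 and 20 reads in WT against 0, 3, 3 and 3 in muMT, a ratio of 6.16 (95% counting interval 2.99 to 14.3). Cd79a, a chain of the B cell receptor, had 8, 3, 3 and 2 reads in WT against 1, 5, 0 and 5 in muMT, a ratio of 1.64 whose interval (0.717 to 3.92) includes no difference. Jchain and Ms4a1 were thus scarce in every library and scarcer in muMT, which was not shown for Cd79a. Such intervals cover counting error only, because PCR copies of a molecule are counted as separate reads.

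The average difference was called at an adjusted p under 0.05 (edgeR quasi-likelihood test, Benjamini-Hochberg over all tested genes) for 5421 genes, 32.6% of those tested. Of these, 9 had opposite signs under the antibodies. That number is held down by the fit itself, in which a host effect that depends on the antibody counts as error: in the average contrast of a fit of 4 group means, 9321 genes were called and 7707 of them had 1 sign. Of the 5412 with 1 sign, 2750 were higher in WT (16.6% of tested genes) and 2662 were lower (16.0%), around a median difference of -0.02 on the log2 scale. At least 2-fold differences numbered 662 higher (3.99%) and 418 lower (2.52%). The 4 WT and 4 muMT libraries did not overlap for 27.3% of tested genes. Taken alone, the host difference was called for 6504 genes under isotype (39.2%) and 9312 under anti-CTLA-4 (56.1%), and 3511 (21.1%) were called under each in the same direction, 11.2% higher and 9.92% lower. Of the 5412 genes, 3482 were called also under each antibody, 501 under isotype only, 1349 under anti-CTLA-4 only and 80 under neither. Differences under the antibodies, which share no library, correlated across genes at r = 0.366 (Spearman 0.357). This is a description, since genes are not independent and all values share the gene's level.

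**Figure D1:**
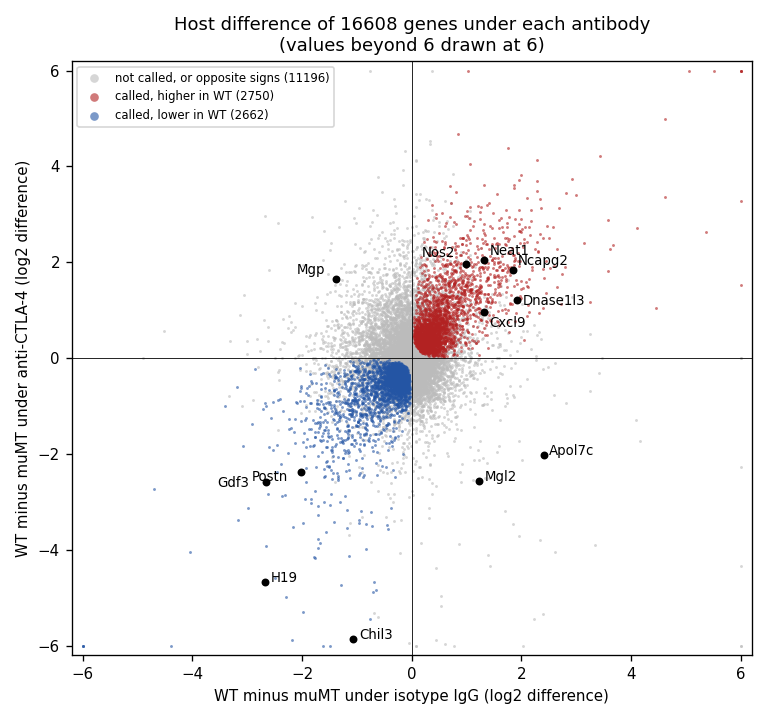
Host difference (WT minus muMT, log2) of each of 16608 tested genes under isotype on the x axis and under anti-CTLA-4 on the y axis. The 2750 red genes and 2662 blue genes were called in the average with 1 sign; Ncapg2 lies on the diagonal, and Mgl2, Apol7c and Mgp lie in the quadrants where the antibodies give opposite signs.

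The most certain gene higher in WT was Ncapg2, a subunit of condensin II, the complex that compacts chromosomes. Its levels were 133 and 141 CPM (isotype) and 168 and 167 CPM (anti-CTLA-4) in WT, against 41.01 and 35.5 CPM (isotype) and 47.3 and 46.6 CPM (anti-CTLA-4) in muMT. The average difference was 1.84 ± 0.06 (log2, SE, adjusted p = 4.32e-07), with 1.84 under isotype and 1.84 under anti-CTLA-4. Promoters of 4 genes described here are printed from RefSeq (GRCm38.p6), 250 bases before the start of the gene, because they hold a match to a motif of factors that act in phagocytes. Capitals mark TGANTCA (AP-1) in Ncapg2, the ISRE, bound by interferon regulatory factors (GAAA, any 2 bases and GAAA, or TTTC, any 2 bases and TTTC when read on the other strand), in Clec2d, Gbp5 and Spp1, and GAGGAAGT (PU.1) in Spp1 as well.
Ncapg2, chr12:116405186-116405435, strand +: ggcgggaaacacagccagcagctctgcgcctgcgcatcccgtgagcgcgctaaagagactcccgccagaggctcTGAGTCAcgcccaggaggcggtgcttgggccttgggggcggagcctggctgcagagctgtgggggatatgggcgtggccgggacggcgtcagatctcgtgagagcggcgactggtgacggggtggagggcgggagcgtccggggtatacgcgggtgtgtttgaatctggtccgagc
Clec2d, chr6:129180365-129180614, strand +: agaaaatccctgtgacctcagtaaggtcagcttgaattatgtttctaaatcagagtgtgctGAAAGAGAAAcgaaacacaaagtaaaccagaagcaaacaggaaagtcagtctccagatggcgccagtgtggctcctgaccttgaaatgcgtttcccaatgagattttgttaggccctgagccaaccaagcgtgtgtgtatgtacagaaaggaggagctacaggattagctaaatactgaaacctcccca
Gbp5, chr3:142496684-142496933, strand +: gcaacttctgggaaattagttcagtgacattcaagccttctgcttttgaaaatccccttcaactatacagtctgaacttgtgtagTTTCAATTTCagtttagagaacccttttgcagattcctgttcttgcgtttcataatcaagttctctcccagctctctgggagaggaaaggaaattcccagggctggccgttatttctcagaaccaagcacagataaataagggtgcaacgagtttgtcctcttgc
Spp1, chr5:104434861-104435110, strand +: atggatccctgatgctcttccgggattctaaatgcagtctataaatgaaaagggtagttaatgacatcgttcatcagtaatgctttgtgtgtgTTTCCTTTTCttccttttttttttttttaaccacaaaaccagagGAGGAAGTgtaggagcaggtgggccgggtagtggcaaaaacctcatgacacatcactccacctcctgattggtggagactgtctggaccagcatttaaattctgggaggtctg
The first 3 of these genes were higher in WT and Spp1 was lower, so the ISRE letters stood before genes of either direction. Over windows of 250 bases before to 50 after the start, read on both strands, the ISRE letters were in 22.2% of the 9 named higher genes with a promoter in the table, 27.3% of the 11 named lower genes, 3.89% of tested genes and 3.44% of all 32851 promoters. Among all genes called at least 2-fold, 4.78% of those higher and 5.67% of those lower held it. AP-1 letters were in 10.7% of the 2-fold higher promoters, 11.3% of the 2-fold lower and 6.87% of the tested. PU.1 letters were in 4.04%, 2.48% and 4.06% in the same order. A match describes letters only.

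The 14 genes named in each direction as most certain, Ncapg2 among them, were taken from genes at least 2-fold apart whose hosts do not overlap, so that gap is no result. Those higher in WT included products of interferon signalling, a nuclease and a nuclear RNA. Cxcl9, the chemokine that draws T cells through CXCR3, was at 436 and 435 CPM (isotype) and 380.1 and 380.5 CPM (anti-CTLA-4) in WT, against 173 and 177 CPM (isotype) and 200.2 and 192 CPM (anti-CTLA-4) in muMT, and its average difference was 1.14 ± 0.08 (log2, SE, adjusted p = 1.4e-05). The difference was wider under isotype (1.32) than under anti-CTLA-4 (0.95). Dnase1l3, a secreted nuclease made by dendritic cells and macrophages that digests DNA of dead cells, was at 130.3 and 132 CPM (isotype) and 101 and 93.3 CPM (anti-CTLA-4) in WT, against 31.3 and 38.1 CPM (isotype) and 41.5 and 42.2 CPM (anti-CTLA-4) in muMT, a difference of 1.57 ± 0.14 (log2, SE, adjusted p = 9.26e-05). Neat1, the long RNA that scaffolds nuclear paraspeckles, was at 1549 and 1593 CPM (isotype) and 1954 and 1889 CPM (anti-CTLA-4) in WT, against 619 and 644 CPM (isotype) and 455 and 472 CPM (anti-CTLA-4) in muMT, a difference of 1.68 ± 0.14 (log2, SE, adjusted p = 5.65e-05). It was the most abundant of the 14.

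Wdfy1, a FYVE domain protein of early endosomes, was at 64.1 and 67.2 CPM (isotype) and 69.8 and 66.2 CPM (anti-CTLA-4) in WT, against 31.3 and 29.1 CPM (isotype) and 20.5 and 21.3 CPM (anti-CTLA-4) in muMT, a difference of 1.41 ± 0.11 (log2, SE, adjusted p = 3.72e-05). Gbp5, a guanylate-binding protein that acts against intracellular microbes, was at 117 and 129 CPM (isotype) and 242 and 256 CPM (anti-CTLA-4) in WT, against 68.8 and 74.02 CPM (isotype) and 105 and 103 CPM (anti-CTLA-4) in muMT, a difference of 1.02 ± 0.09 (log2, SE, adjusted p = 9.08e-05). Its muMT anti-CTLA-4 libraries came close to the WT isotype libraries without reaching them. Clec2d, a lectin that is a ligand of NK cell receptors, differed by 1.01 ± 0.06, with 0.94 under isotype and 1.08 under anti-CTLA-4. Trps1, a GATA-type repressor, differed by 1.05 ± 0.07, the Notch co-activator Maml2 by 1.01 ± 0.06, and the zinc finger factor Hivep3 by 1.01 ± 0.09. The inflammasome sensor Nlrp1b differed by 1.10 ± 0.07, Tspoap1 by 1.24 ± 0.08, the long non-coding RNA Gdap10 by 1.16 ± 0.08 and Rnaset2b, a ribonuclease, by 1.01 ± 0.10. Nlrp1b and Rnaset2b have near-identical neighbours in the mouse genome, so their counts are less certain.

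The gene with the widest gap among those lower in WT was H4c17, a histone H4 gene, with 608, 581, 733 and 694 reads in the 4 muMT libraries and 2, 3, 0 and 3 in the 4 WT libraries. It was 289 times as high in muMT by CPM, with a 95% counting interval from 147 to 671. Other histone H4 genes encode the same protein, and multimapping reads were not counted. Spp1, which encodes osteopontin, a secreted phosphoprotein of macrophages in injured and tumour tissue, was at 1029 and 1127 CPM (isotype) and 1193 and 1184 CPM (anti-CTLA-4) in WT, against 2327 and 2019.7 CPM (isotype) and 2675 and 2735 CPM (anti-CTLA-4) in muMT, a difference of -1.10 ± 0.07 (log2, SE, adjusted p = 9.5e-06). It was the most abundant of the 14 genes named as lower in WT. Gdf3, a ligand of the TGF-beta family, was at 3.46 and 2.56 CPM (isotype) and 1.92 and 2.35 CPM (anti-CTLA-4) in WT, against 17.99 and 19.95 CPM (isotype) and 12.7 and 13.2 CPM (anti-CTLA-4) in muMT, a difference of -2.63 ± 0.12 (log2, SE, adjusted p = 2.98e-06).

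Serpina3n, a secreted inhibitor of serine proteases, was at 12.3 and 13.01 CPM (isotype) and 6.85 and 7.35 CPM (anti-CTLA-4) in WT, against 40.6 and 42.1 CPM (isotype) and 21.7 and 19.6 CPM (anti-CTLA-4) in muMT, a difference of -1.63 ± 0.08 (log2, SE, adjusted p = 2.98e-06). Postn, the matrix protein periostin, was at 5.48 and 6.95 CPM (isotype) and 1.56 and 2.02 CPM (anti-CTLA-4) in WT, against 26.4 and 24.1 CPM (isotype) and 10.1 and 8.47 CPM (anti-CTLA-4) in muMT, a difference of -2.17 ± 0.13 (log2, SE, adjusted p = 9.17e-06). In both genes anti-CTLA-4 libraries were lower than isotype libraries of the same host, and WT was lower than muMT under each antibody. Col9a2, a chain of collagen IX, differed by -1.57 ± 0.07 (log2, SE, adjusted p = 2.98e-06). The vasoconstrictor gene Edn1 differed by -1.69 ± 0.10, the epoxide hydrolase Ephx1 by -1.30 ± 0.06, the tubulin Tuba1a by -1.09 ± 0.05, the cell adhesion gene Chl1 by -1.22 ± 0.06 and the small GTPase Rhov by -1.05 ± 0.07. Tcim differed by -1.66 ± 0.08 and Erdr1x by -2.12 ± 0.13. Vasn, a membrane protein that binds TGF-beta, differed by -1.70 ± 0.10 on the sense strand, but by 0.11 (adjusted p = 0.264) where reads of either strand were counted, so its direction rests on the strand.

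**Figure D2:**
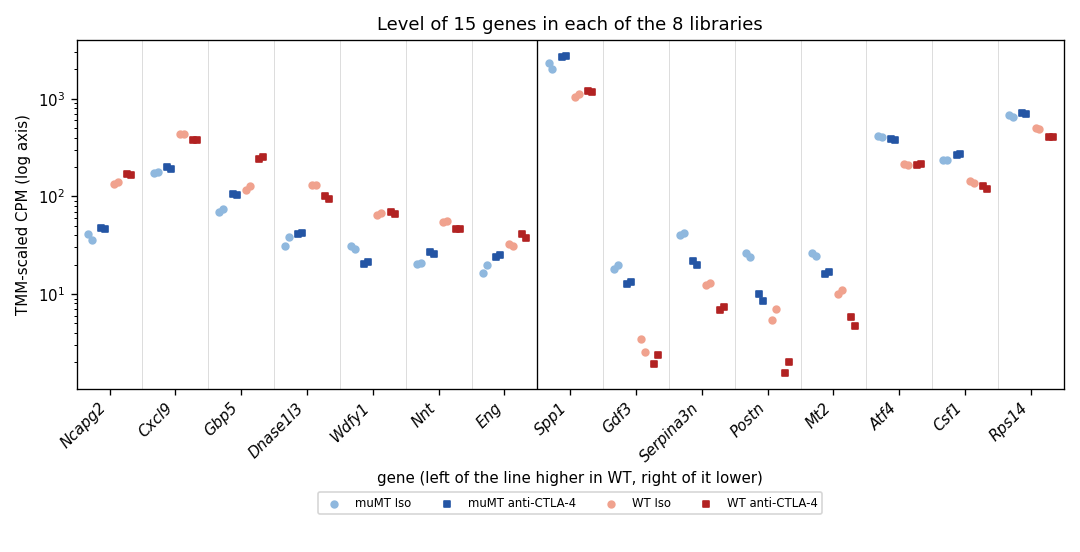
Level (TMM-scaled CPM, log axis) of 15 genes in each of the 8 libraries, with circles for isotype, squares for anti-CTLA-4, blue for muMT and red for WT. The 4 muMT and 4 WT libraries of Ncapg2, Cxcl9, Gdf3 and Spp1 do not overlap, which the rule that named them required, and the muMT anti-CTLA-4 libraries of Gbp5 (103 and 105 CPM) lie just under its WT isotype libraries (117 and 129 CPM).

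Some genes differed by nearly the same amount under each antibody. On the higher side, the evenest of those meeting the naming rule were Ncapg2, the small Cajal body RNA Scarna2 (1.05 under isotype and 1.02 under anti-CTLA-4), Maml2, Hivep3, Clec2d and Trps1. On the lower side, they were Chl1 (-1.21 under isotype and -1.22 under anti-CTLA-4), Tuba1a, Gdf3, Ephx1, Tcim and Gjc3, which encodes a connexin of glia (-1.11 under isotype and -1.20 under anti-CTLA-4). They were picked for evenness, which is no result. A host difference that depended on the antibody was called for 2030 of the 5412 genes. In 1660 of these it was larger under anti-CTLA-4 and in 370 under isotype.

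Ncapg2 sits close to Ighm, on chromosome 12, in the gene order of RefSeq. Among the 61 tested genes nearest to Ighm, 50 before it and the 11 after it, 17 were higher and 12 were lower in WT, so 47.5% were called against 32.6% of all placed genes. Of 1485 windows of as many consecutive genes, 19 held a higher share (range 13.1% to 54.1%, median 32.8%). At least 2-fold differences numbered 5 in this window, and 269 windows had more. The number called was 19 without muMT anti-CTLA-4 replicate 1, 18 without muMT anti-CTLA-4 replicate 2 and 19 without WT anti-CTLA-4 replicate 2. Zfp386, a zinc finger gene and the first tested gene after Ighm, differed by -0.58 ± 0.06, with -0.59 under isotype and -0.58 under anti-CTLA-4. The tested entry nearest before Ighm was Igh, given above. Crip1, a LIM domain gene and the 3rd tested gene before Ighm, was at 59.6 and 52.9 CPM (isotype) and 79.6 and 75.03 CPM (anti-CTLA-4) in WT, against 85.4 and 90.9 CPM (isotype) and 116 and 121 CPM (anti-CTLA-4) in muMT, a difference of -0.64 ± 0.06 (log2, SE, adjusted p = 8.9e-05). Esyt2, which tethers the endoplasmic reticulum to the plasma membrane, differed by 0.36 ± 0.07, and Rapgef5, an exchange factor of Rap GTPases, by -0.85 ± 0.14. Neighbours thus differed in both directions.

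**Figure D3:**
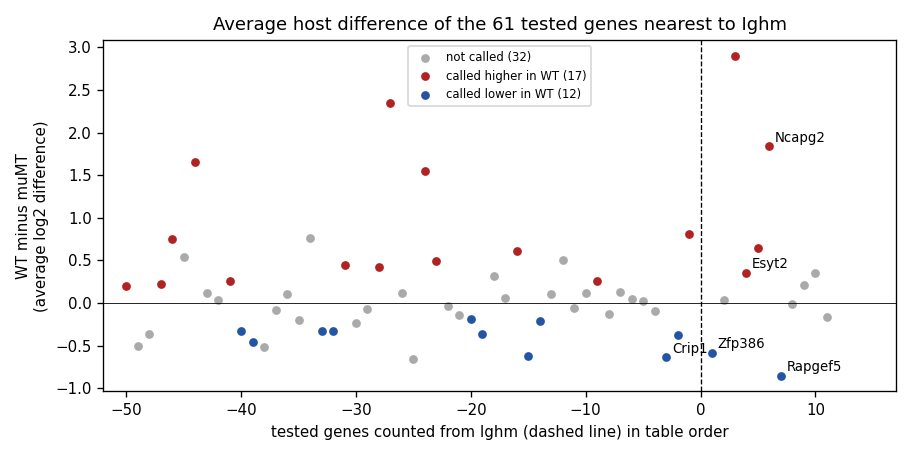
Average host difference (log2, y axis) of the 61 tested genes nearest to Ighm by their order along the chromosome (x axis, Ighm at 0). Red marks the 17 genes called higher in WT and blue the 12 called lower; Ncapg2 is the 6th tested gene after Ighm.

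Nnt, the nicotinamide nucleotide transhydrogenase of mitochondria, carries a deletion in the C57BL/6J substrain and is used to tell substrains apart. It was at 54.2 and 55.4 CPM (isotype) and 45.8 and 45.9 CPM (anti-CTLA-4) in WT, against 20.1 and 20.8 CPM (isotype) and 27.2 and 25.8 CPM (anti-CTLA-4) in muMT, a difference of 1.10 ± 0.12 (log2, SE, adjusted p = 0.000182). Both hosts had reads, and WT was higher in every library. Of 6 tested genes listed as linked to mouse substrains, 3 were higher and 1 lower in WT, among them Nnt, Wdfy1 and H4c17. The count lower was 2 without WT anti-CTLA-4 replicate 1.

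Genes induced by interferon-gamma formed the list with the largest number of members higher in WT. Of 34 tested, 26 were called higher and 0 lower, with a median of 0.42 against -0.02 for all genes, and 20 were called higher under each antibody alone. Nos2, the inducible nitric oxide synthase, was at 85.9 and 86.1 CPM (isotype) and 474 and 457 CPM (anti-CTLA-4) in WT, against 40.4 and 46.3 CPM (isotype) and 122 and 117 CPM (anti-CTLA-4) in muMT, a difference of 1.48 ± 0.18 (log2, SE, adjusted p = 0.00068). The WT anti-CTLA-4 libraries were the highest by far, and the muMT anti-CTLA-4 libraries were above WT isotype.

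Of 39 type I interferon-stimulated genes, many of which answer interferon-gamma as well, 18 were higher and 1 lower, with a median of 0.26. The antiviral synthetase gene Oas2 differed by 0.68 ± 0.06 and its relative Oasl2 by 0.78 ± 0.07. Of 22 MHC class I and peptide loading genes, 9 were higher and 1 lower. Nlrc5, the transactivator of MHC class I, differed by 0.64 ± 0.05, the peptide pump subunit Tap1 by 0.38 ± 0.05 and the loading chaperone Tapbp by 0.37 ± 0.05. These steps were smaller than those of Cxcl9 and Gbp5. The single class I member called lower was not called without any 1 of the 4 anti-CTLA-4 libraries or without muMT isotype replicate 1. Of 14 MHC class II genes, 2 were higher and 1 lower, a share below the background. H2-Eb2 differed by 1.51 ± 0.14 at low level, while H2-DMa (-0.44, adjusted p = 0.0256) and Rfx5 (0.19, adjusted p = 0.0493) were near the threshold. Without any 1 of the 4 anti-CTLA-4 libraries, or without WT isotype replicate 1 or muMT isotype replicate 1, the class II count higher was 1. H2-DMa lost its call without any 1 of the anti-CTLA-4 libraries, and Rfx5 without any 1 of the 8 libraries.

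**Figure D4:**
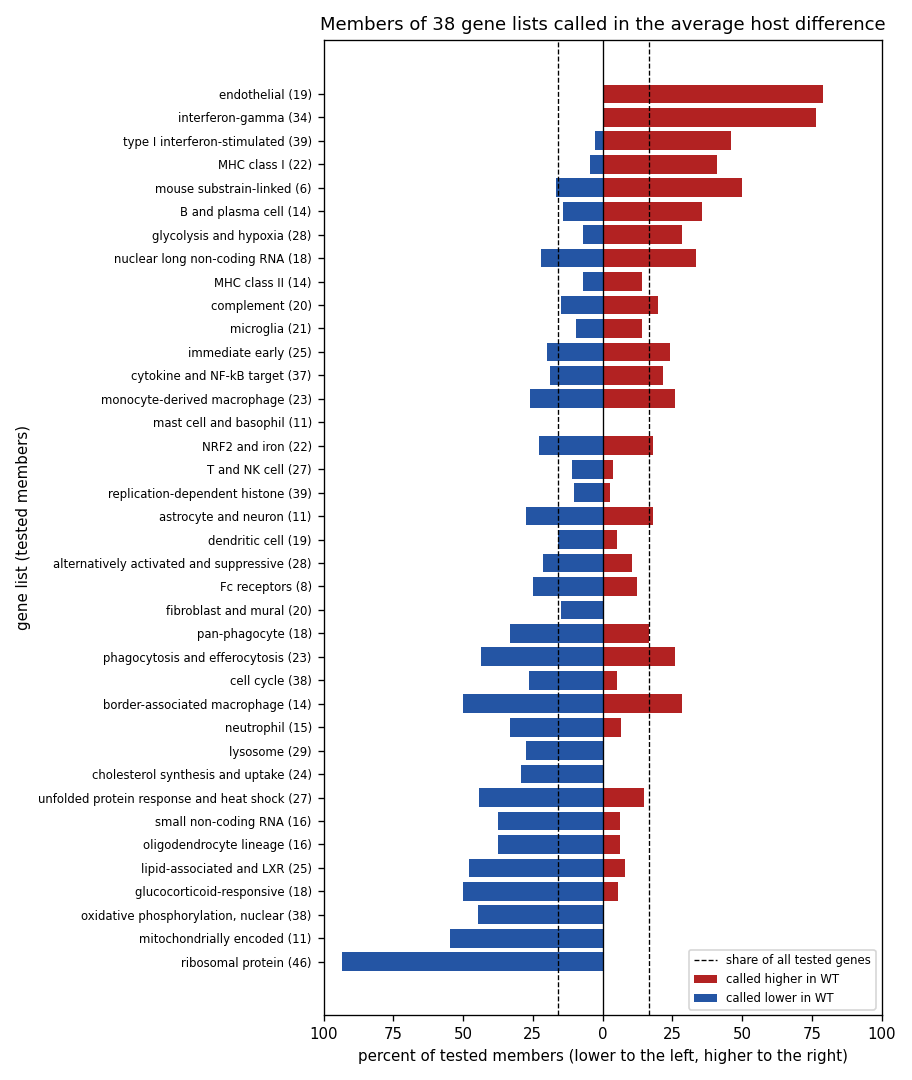
Percent of tested members of 38 gene lists called higher in WT (red, to the right) or lower (blue, to the left) in the average host difference, with the number tested in brackets. Dashed lines give the shares of all tested genes, 16.6% higher and 16.0% lower; the interferon-gamma and endothelial lists reach furthest to the right, and the ribosomal protein list furthest to the left.

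Among cytokine genes, Cxcl3, Csf1 and Ccl2, which act on myeloid cells, were called lower in WT. Cxcl3, a neutrophil chemokine, was at 11.8 and 11.8 CPM (isotype) and 32.6 and 33.2 CPM (anti-CTLA-4) in WT, against 23.8 and 22.9 CPM (isotype) and 66.7 and 66.9 CPM (anti-CTLA-4) in muMT, a difference of -1.005 ± 0.06 (log2, SE, adjusted p = 5.55e-06). WT anti-CTLA-4 libraries stood above muMT isotype libraries, so the hosts overlapped although WT was lower under each antibody. Csf1, the growth factor of macrophages, was at 142 and 138 CPM (isotype) and 128 and 119.6 CPM (anti-CTLA-4) in WT, against 233 and 236 CPM (isotype) and 267 and 271 CPM (anti-CTLA-4) in muMT, a difference of -0.93 ± 0.08 (log2, SE, adjusted p = 5.52e-05). Ccl2, which draws monocytes, differed by -0.58 ± 0.06. Of 37 cytokines and NF-kB targets, 8 were higher, 7 lower and 13 were called in opposite directions under the antibodies. Without 1 anti-CTLA-4 library the count higher came to 3 for either muMT library or WT replicate 1, and to 4 for WT replicate 2.

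Genes of alternatively activated macrophages did not move as a block. Of 28, 3 were higher, 6 lower and 15 crossed between antibodies. Mrc1, the mannose receptor CD206, was at 1499 and 1565 CPM (isotype) and 437 and 447 CPM (anti-CTLA-4) in WT, against 2160.2 and 2084 CPM (isotype) and 2145 and 2115 CPM (anti-CTLA-4) in muMT, a difference of -1.37 ± 0.36 (log2, SE, adjusted p = 0.0279). The WT anti-CTLA-4 libraries were lowest, and the call was lost without any 1 of the anti-CTLA-4 libraries (adjusted p from 0.0774 to 0.095). F13a1, a coagulation factor subunit of tissue macrophages, differed by -0.56 ± 0.06, and Il1rn, the interleukin 1 receptor antagonist, by 0.43 ± 0.06. Arg1, which turns arginine into ornithine, was not called (-0.42, adjusted p = 0.34), with 0.40 under isotype and -1.24 under anti-CTLA-4. Chil3, a chitinase-like protein, was not called either (-3.42, adjusted p = 0.0876), although it was -1.06 under isotype and -5.86 under anti-CTLA-4. Its call depended on the setting. DESeq2's Wald test called it (adjusted p = 0.00116), as did edgeR without robust estimation (0.0254), without the antibody block (0.022) and without muMT isotype replicate 2. In the average contrast of the fit of 4 groups edgeR called both, with an adjusted p of 1.54e-13 for Arg1 and 3.46e-34 for Chil3.

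Lipid and lysosome genes were more often lower than higher. Of 25 genes of lipid-laden macrophages and LXR signalling, 12 were lower and 2 higher, with a median of -0.19. Besides Spp1, Lgals3, the lectin galectin-3, differed by -0.51 ± 0.05 and Plin2, the coat protein of lipid droplets, by -0.53 ± 0.05. Of 29 lysosome genes, 8 were lower and 0 higher, and 6 were called in opposite directions under the antibodies. The share called was below the 32.6% of all tested genes, while the share called lower was above their 16.0%. Ctsl, the cysteine protease cathepsin L, was at 832 and 838 CPM (isotype) and 734 and 733 CPM (anti-CTLA-4) in WT, against 1556 and 1384 CPM (isotype) and 1092 and 1091 CPM (anti-CTLA-4) in muMT, a difference of -0.69 ± 0.07 (log2, SE, adjusted p = 0.000114), and Atp6v0d2, a proton pump subunit, differed by -1.21 ± 0.16. Of 24 cholesterol synthesis and uptake genes, 7 were lower and 0 higher, but 2 were lower under each antibody alone and 5 were called in opposite directions. Their median was -0.004 under isotype and -0.68 under anti-CTLA-4, and 3 were lower without any 1 of the anti-CTLA-4 libraries.

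Uptake genes went both ways. Of 23 phagocytosis and efferocytosis genes, 10 were lower and 6 higher. Mfge8, a bridge between dying cells and integrins, differed by -0.99 ± 0.11, Elmo1, which drives engulfment through Rac, by 0.51 ± 0.06, and the integrin Itgav by 0.47 ± 0.07. The count lower was 6 without muMT anti-CTLA-4 replicate 1, 5 without WT anti-CTLA-4 replicate 1 and 6 without WT anti-CTLA-4 replicate 2. Of 8 Fc receptor genes, 1 was higher and 2 lower. Fcgr3, an activating IgG receptor, differed by -0.53 ± 0.09, Fcer1g, its signalling chain, by -0.38 ± 0.05, and Trim21, the receptor for antibody inside cells, by 0.46 ± 0.08. Fcgr2b, the inhibitory IgG receptor, was not called (-0.07, adjusted p = 0.71), with 0.31 under isotype and -0.45 under anti-CTLA-4. Of 20 complement genes, 4 were higher and 3 lower, a share near the 32.6% called among all tested genes. Their median was -0.10 under isotype and 0.16 under anti-CTLA-4. The members with the smallest p were all among the higher ones. C3, the central component, differed by 0.93 ± 0.10, its partner Cfb by 0.44 ± 0.05 and C2 by 0.85 ± 0.15.

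More stress and hormone-responsive genes were lower in WT than higher. Of 18 glucocorticoid-responsive genes, 9 were lower and 1 higher, with a median of -0.51. Mt2, a metallothionein that binds zinc and answers metals as well as glucocorticoid, was at 9.97 and 10.9 CPM (isotype) and 5.85 and 4.67 CPM (anti-CTLA-4) in WT, against 26.2 and 24.8 CPM (isotype) and 16.2 and 16.8 CPM (anti-CTLA-4) in muMT, a difference of -1.46 ± 0.11 (log2, SE, adjusted p = 2.23e-05). Fkbp5, a chaperone of the glucocorticoid receptor, differed by -0.90 ± 0.09. Of 27 heat shock and unfolded protein response genes, 12 were lower and 4 higher. Under each antibody alone 8 were lower, 6 were called in opposite directions, and the median was 0.05 under isotype and -0.51 under anti-CTLA-4. Atf4, the factor of the integrated stress response, was at 212 and 207 CPM (isotype) and 211 and 215 CPM (anti-CTLA-4) in WT, against 411 and 403 CPM (isotype) and 384 and 381 CPM (anti-CTLA-4) in muMT, a difference of -0.90 ± 0.05 (log2, SE, adjusted p = 6.01e-06). Its libraries varied little within a host. Ddit3, a target of Atf4 that encodes CHOP, differed by -0.90 ± 0.08, and the heat shock gene Hspa1b by 0.54 ± 0.05. Without WT anti-CTLA-4 replicate 1 or 2 the count lower was 7.

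The calls among genes of translation and respiration were toward lower levels in WT. Of 46 ribosomal protein genes, 43 were lower and 0 higher, with a median of -0.46, and 39 were lower under each antibody alone. Rps14, a protein of the small subunit, was at 504 and 491 CPM (isotype) and 402 and 406 CPM (anti-CTLA-4) in WT, against 682 and 655 CPM (isotype) and 707 and 703 CPM (anti-CTLA-4) in muMT, a difference of -0.61 ± 0.08 (log2, SE, adjusted p = 0.000469). The WT anti-CTLA-4 libraries were lowest and the hosts did not overlap. Rps16 differed by -0.81 ± 0.10 and Rpl38 by -0.68 ± 0.09. Of 38 nuclear genes of oxidative phosphorylation, 17 were lower and 0 higher, among them the complex I subunits Ndufs8 (-0.55 ± 0.07) and Ndufa4 (-0.81 ± 0.11), the latter also assigned to complex IV, and Uqcrb of complex III (-0.55 ± 0.10). Under each antibody alone 6 were lower and 7 were called in opposite directions, with a median of -0.02 under isotype and -0.61 under anti-CTLA-4. Without 1 anti-CTLA-4 library the count of 17 became 9 for either muMT library and 6 for either WT library. Of 11 mitochondrially encoded genes, 6 were lower, with -0.65 ± 0.10 for ND1. Among the 6 were also the ribosomal RNAs mt-Rnr1 (-0.53 ± 0.08) and mt-Rnr2 (-0.34 ± 0.05). The libraries were depleted of ribosomal RNA, and the part of that depletion in these values was not tested. In the 7 lists with no member higher, edgeR at an unadjusted p under 0.05 gave 0 higher with 1 sign, and DESeq2 gave 0 higher. In the 3 lists with none lower, both gave 0 lower. These checks concern the empty direction only.

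The direction of a call varied with the length of genome that a gene spans. Protein-coding genes were put in 5 equal bins by span (RefSeq, GRCm38.p6). The bin of shortest genes (median 4.52 kb) had 6.51% called higher and 30.6% called lower in WT, with a median difference of -0.21. The bin of longest genes (median 123 kb) had 30.8% higher and 8.87% lower, with a median of 0.17. The bins in between followed in order. Ribosomal protein genes are short, and their median was 0.26 below that of the bins their members fall in. That of the interferon-gamma list was 0.52 above, of the endothelial list 1.01 above and of the glucocorticoid list 0.51 below. For other lists the median against the bins is given with the plain median in brackets. It was -0.16 (-0.32) for nuclear oxidative phosphorylation, -0.18 (-0.32) for unfolded protein response and heat shock, and -0.09 (-0.22) for the cell cycle. The replication-dependent histone list was at 0.03 (-0.18). Reads outside genes moved with the host too, as given above, and the part of either in these lists was not tested.

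**Figure D5:**
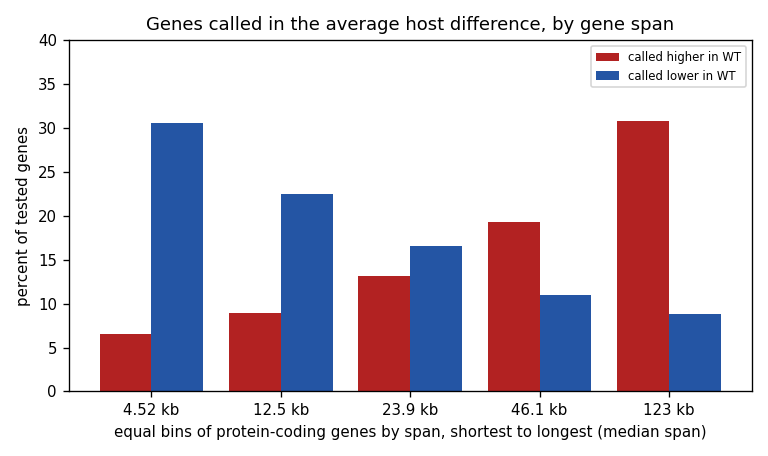
Percent of protein-coding genes called higher (red) or lower (blue) in WT, in 5 equal bins of gene span from shortest to longest on the x axis. The share called higher climbs from 6.51% to 30.8% and the share called lower drops from 30.6% to 8.87%.

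RNA classes differed in the same comparison. Of tested microRNA genes, 23 of 77 were at least 2-fold higher and 1 lower; of pseudogenes 108 of 605 higher and 8 lower; of long non-coding RNAs 165 of 1561 higher and 71 lower. Protein-coding genes had 250 of 13364 higher and 304 lower, and genes at least 2-fold apart were mostly scarce, with a median level of 1.11 CPM for the higher and 1.25 CPM for the lower. Of 18 nuclear long non-coding RNAs, 6 were higher and 4 lower. Kcnq1ot1, an imprinted nuclear RNA, differed by 0.61 ± 0.05. H19, an imprinted RNA of growing tissue, was at 7.39 and 6.73 CPM (isotype) and 0.400 and 0.404 CPM (anti-CTLA-4) in WT, against 44.9 and 45.1 CPM (isotype) and 10.6 and 10.2 CPM (anti-CTLA-4) in muMT, a difference of -3.20 ± 0.30 (log2, SE, adjusted p = 0.00018), and it was lowest in WT anti-CTLA-4. Of 16 small non-coding RNAs in a chosen list, 6 were lower and 1 higher, with a median of -0.05 under isotype and -0.76 under anti-CTLA-4. The RefSeq classes of small RNA did not share that direction. Of 121 small nucleolar RNAs, 19 were called higher and 3 lower (18.2% called), and of 45 small nuclear RNAs, 7 higher and 1 lower (17.8%). Both shares were below the 32.6% of all placed genes. Rn7sk, which holds back transcription elongation, differed by -0.73 ± 0.05, Rn7s1, an RNA of the signal recognition particle with several near-identical copies, by -1.37 ± 0.14 and Scarna2 by 1.04 ± 0.10.

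Markers of other cell types were present, and the share called varied by list. It was above the 32.6% of all tested genes for endothelial, oligodendrocyte, astrocyte and neuron, B and plasma cell and neutrophil genes, and below it for the T and NK cell, fibroblast and mural, dendritic cell, and mast cell and basophil lists. In sorted bulk samples, fewer cells of a type, less RNA per cell and less RNA from tumour material inside the sorted cells cannot be told apart. Of 19 endothelial genes, 15 were higher in WT and 0 lower, with a median of 1.12 (0.56 under isotype and 1.80 under anti-CTLA-4). Under each antibody alone 11 were higher, and their sum was 357 to 460.1 CPM in WT and 220.0 to 313 in muMT. Vwf, the von Willebrand factor, was at 33.8 and 32.8 CPM (isotype) and 57.03 and 51.95 CPM (anti-CTLA-4) in WT, against 20.3 and 23.6 CPM (isotype) and 16.5 and 18.3 CPM (anti-CTLA-4) in muMT, a difference of 1.12 ± 0.20 (log2, SE, adjusted p = 0.00332), Eng, a TGF-beta co-receptor, differed by 0.74 ± 0.08, and Kdr, the VEGF receptor, by 0.81 ± 0.10. No endothelial marker was at 0 reads over a host. The count was 7 and 8 without muMT anti-CTLA-4 replicate 1 or 2, and 9 without either WT anti-CTLA-4 library.

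Of 16 tested oligodendrocyte lineage genes, 6 were lower and 1 higher, with sums of 989.5 to 1443 CPM in WT and 1439 to 2113 in muMT. Most of each sum came from Trf, transferrin, which macrophages also express, at 847 to 1305 CPM in WT and 1302 to 1954 in muMT. The sums therefore mainly describe that gene. Trf differed by -0.60 ± 0.05, and the lineage factors Olig1 by -1.28 ± 0.16 and Sox10 by -1.07 ± 0.14. Of 20 fibroblast and mural genes, 3 were lower, Cspg4 (-0.96 ± 0.12), Pdgfra (-0.96 ± 0.18) and Acta2 (-0.45 ± 0.15), and glial progenitors express the first pair as well. Another 8 were called in opposite directions under the antibodies. Their sums were 912 to 1177 CPM in WT and 1396 to 1707 in muMT. The Acta2 call was lost without any 1 of the isotype libraries, muMT anti-CTLA-4 replicate 1 or WT anti-CTLA-4 replicate 2. Of 11 astrocyte and neuron genes, 2 were higher and 3 lower, with 1.07 ± 0.17 for the glutamate transporter Slc1a2, -0.99 ± 0.11 for Tubb3 and -0.76 ± 0.10 for Map2, and sums of 77.6 to 79.7 CPM in WT and 78.8 to 86.3 in muMT.

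Lymphocyte and granulocyte genes followed no common direction. Of 14 tested B and plasma cell genes, 5 were higher and 2 lower; Ighm and Ighd had 0 reads in every library. Sdc1, a syndecan that plasma cells share with many cells, differed by -0.92 ± 0.11. The list summed to 277 to 331 CPM in WT and 334 to 405 in muMT, so its sum, to which genes that other cells express contribute, was higher in muMT. Its count lower was 1 without any 1 of the anti-CTLA-4 libraries. Of 27 T and NK cell genes, 1 was higher and 3 lower, with sums of 128 to 159.8 and 128 to 160.1 CPM. The co-receptor gene Cd4, which macrophages can express, differed by 1.10 ± 0.18, Cd8a by -1.21 ± 0.28 and Cd8b1 by -1.35 ± 0.29. The count higher was 2 without either muMT isotype library or without muMT anti-CTLA-4 replicate 1. Of 15 neutrophil genes, 5 were lower and 1 higher (3 and 0 under each antibody alone), with sums of 278 to 363 and 332 to 438 CPM. Mmp8, a collagenase, differed by -0.84 ± 0.09, the decoy receptor Il1r2 by -0.51 ± 0.05 and the chemokine receptor Cxcr2 by -2.07 ± 0.47. The 1 neutrophil gene higher was not called without any 1 of the anti-CTLA-4 libraries or without muMT isotype replicate 1. Of 11 mast cell and basophil genes, 0 were called by edgeR, 0 had 1 sign at an unadjusted p under 0.05, DESeq2 called 0, and 6 were called in opposite directions under the antibodies. Of 19 dendritic cell genes, 1 was higher, Dnase1l3, and 3 were lower; the count higher was 2 without muMT isotype replicate 2 or muMT anti-CTLA-4 replicate 2. The part of these cells in the other lists was not tested.

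Phagocyte types showed no common direction. Of 21 microglia genes, 3 were higher and 2 lower, a share below the 32.6% called among all tested genes. Another 7 were called in opposite directions under the antibodies. The higher ones were Sall1, a microglial transcription factor (0.70 ± 0.10), Tgfbr1 (0.35 ± 0.06) and the fractalkine receptor Cx3cr1 (0.44 ± 0.10). The count lower was 0 without any 1 of the isotype libraries and 1 without muMT anti-CTLA-4 replicate 1 or WT anti-CTLA-4 replicate 1. Of 14 border-associated macrophage genes, 7 were lower and 4 higher, with a median of -0.54. The scavenger receptor Colec12 differed by -0.62 ± 0.08 and the chemokine Pf4 by -0.40 ± 0.06. The count higher was 2 without any 1 of the anti-CTLA-4 libraries. Of 23 genes of monocyte-derived macrophages, 6 were higher and 6 lower, among them Anxa2 (-0.45 ± 0.05) and the proteoglycan Vcan (-0.76 ± 0.09). Of 18 pan-phagocyte genes, 3 were higher and 6 lower, with 0.28 ± 0.05 for Cybb, a subunit of the phagocyte oxidase, and -0.37 ± 0.05 for Cd68, a lysosomal membrane protein. Itgam, which encodes CD11b, was not called (0.35, adjusted p = 0.108), with -0.08 under isotype and 0.77 under anti-CTLA-4, but edgeR called it in the average contrast of the fit of 4 groups (adjusted p = 2.06e-11).

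Proliferation genes and metabolic programmes gave mixed counts. Of 38 cell cycle genes, 10 were lower, 2 higher and 20 were called in opposite directions under the antibodies; the count higher was 1 without WT isotype replicate 2. Of 39 genes in the replication-dependent histone list, 4 were lower, 1 higher and 26 crossed. The 4 lower include H1f0 (-0.69 ± 0.06), a replacement linker histone that does not belong to that class. The count lower was 8 without muMT isotype replicate 1, and the gene higher was not called without either muMT isotype library or without WT isotype replicate 2. Of 28 glycolysis and hypoxia genes, 8 were higher and 2 lower (3 and 1 under each antibody alone). Without 1 anti-CTLA-4 library the count higher was 3 or 4 and the count lower 1, and the count lower was 0 without WT isotype replicate 2. Of 25 immediate early genes, 6 were higher and 5 lower. Of 22 NRF2 and iron genes, 4 were higher and 5 lower; the count higher was 2 without any 1 of the anti-CTLA-4 libraries, and the count lower 3 without WT isotype replicate 2.

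The average leaves out genes whose host difference turned with the antibody. The difference of the host effect between antibodies was called for 6194 genes (37.3%), and 1026 (6.18%) were called in opposite directions, 601 of them (3.62%) higher in WT under isotype and lower under anti-CTLA-4, and 425 (2.56%) the reverse. Mgl2, a lectin of alternatively activated macrophages and dendritic cells, was at 132 and 122 CPM (isotype) and 55.9 and 59.04 CPM (anti-CTLA-4) in WT, against 54.6 and 53.7 CPM (isotype) and 341 and 341 CPM (anti-CTLA-4) in muMT. It was lowest in muMT isotype and highest in muMT anti-CTLA-4, so that WT minus muMT was 1.23 under isotype and -2.57 under anti-CTLA-4, while the average was -0.68 (edgeR adjusted p = 0.61, and 1.51e-15 in the average contrast of the fit of 4 groups). Apol7c, an apolipoprotein L gene, had 2.41 under isotype and -2.02 under anti-CTLA-4, the adhesion gene Cdh1 1.41 under isotype and -2.49 under anti-CTLA-4, and Kmo, an enzyme of tryptophan breakdown, 1.07 under isotype and -1.86 under anti-CTLA-4. The other direction was shown by Mgp, the matrix Gla protein, which was at 23.2 and 24.6 CPM (isotype) and 14.7 and 13.3 CPM (anti-CTLA-4) in WT, against 62.01 and 62.9 CPM (isotype) and 4.29 and 4.66 CPM (anti-CTLA-4) in muMT. It was high in muMT isotype and low in muMT anti-CTLA-4, with -1.39 under isotype and 1.65 under anti-CTLA-4. The mast cell proteases Mcpt1 (-1.61 under isotype and 2.04 under anti-CTLA-4) and Mcpt2 (-1.49 under isotype and 2.25 under anti-CTLA-4) and the collagen gene Col12a1 (-1.06 under isotype and 1.13 under anti-CTLA-4) had the same order of signs. Mcpt1 and Mcpt2 stand beside 9 other tested mast cell and basophil genes, of which none was called in the average.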

How the data were processed

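Stranded total RNA libraries, depleted of ribosomal RNA, were sequenced from the sorted cells. Raw read counts per gene were used as deposited by the authors, in STAR's count layout, where multimapping reads count for no gene. Per the submitters' processing notes, cutadapt 5.0, STAR 2.7, mm39 and DESeq2 1.42.1 were used. The annotation is not given in the sources used here. The reverse-strand column was taken, and the summary lines (no gene, multimapping and others) stayed out of library sizes.

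Of 50763 genes listed, 30432 had a read and 16608 passed filterByExpr by group. Robust quasi-likelihood fits on antibody plus host were made in edgeR 4.0.16 (R 4.3.3) after TMM scaling (5 residual degrees of freedom). Differences are WT minus muMT on the log2 scale with SE. Host effects under each antibody and their difference came from a fit of 4 group means. A gene was called at an adjusted p under 0.05. A host effect that depends on the antibody enters the error of the average: the biological coefficient of variation was 12.5% there and 4.11% in the fit of group means. Within groups the spread was 1.77 to 7.79 times that of counting alone, so no library was taken for a copy. Positions, spans, biotypes and promoters came from RefSeq tables of GRCm38.p6, and 96.2% of tested genes matched by name.

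The genes named were the 14 higher and 14 lower with the smallest p among those called in the average and under each antibody, at least 2-fold apart, at a mean of at least 5 CPM, without overlap of hosts and without a predicted symbol. Further ones were the 6 evenest per direction, 4 with opposite signs per direction and up to 3 members per list (those with the smallest p, called or not). Also taken were 5 beside Ighm, and Ighm, Jchain, Ms4a1, Cd79a, Nnt, Ptprc, Itgam, Fcgr2b, Arg1, Nos2, Mrc1, Chil3 and Cxcl9. Cd79a had too few reads to be tested. Members of 8 lists are described by counts alone unless another rule selects them, and a few more genes that the rules select are left out. The members, the 38 lists and the rules were chosen with earlier results of these data known. Lists are described by counts and medians, without a test. Alternatives were no filter, DESeq2 size factors, the unstranded column, a replicate block, no antibody block, the average contrast of the fit of 4 groups, no robust estimation, DESeq2's Wald test and each library left out; scaling by total reads was added after seeing the data.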

Additional observations from a re-analysis of the deposited data

Results flagged for a closer look

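Groups of 2 libraries are too small for a test of outlying libraries. The naming rules select 148 tested genes, and 126 remain when the members of 8 lists described by counts alone are set aside. Of the 126, 57 had a host difference that depended on the antibody, by the interaction contrast of edgeR (adjusted p from 4.1e-30 to 0.0468), and of the 148, 70 had. The values below are the host difference under anti-CTLA-4 minus that under isotype, on the log2 scale, and their causes were not tested.

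In 37 of them the signs were alike and the difference was larger under anti-CTLA-4. Where WT was higher, the value was 0.25 for Trps1, 0.30 for Nlrp1b, 0.37 for Tspoap1, 0.38 for Gdap10, 0.58 for Wdfy1, 0.74 for Neat1, 0.47 for Gbp5, 0.91 for Cd4, 1.05 for Vwf, 0.34 for Sall1, 0.56 for Cx3cr1, 0.75 for C2, 0.22 for Elmo1, 0.24 for Itgav, 0.21 for Oasl2, 0.23 for Il1rn and 0.97 for Nos2. Where WT was lower, it was -0.59 for Sdc1, -0.37 for Mmp8, -2.62 for Cxcr2, -0.44 for Fcgr3, -0.50 for Mfge8, -0.88 for Atp6v0d2, -0.69 for H2-DMa, -0.38 for Csf1, -0.16 for Plin2, -0.29 for Ndufs8, -0.60 for Ndufa4, -0.53 for Uqcrb, -0.48 for ND1, -0.29 for mt-Rnr1, -0.38 for Rps14, -0.41 for Rpl38, -0.44 for Fkbp5, -2.005 for H19, -1.80 for Mrc1 and -4.79 for Chil3.

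In 9 the signs were alike and the difference was larger under isotype. Where WT was higher, the value was -0.36 for Cxcl9, -0.70 for Dnase1l3, -0.53 for C3, -0.63 for Nnt and -0.33 for Esyt2. Where WT was lower, it was 1.30 for Cd8a, 0.24 for Ctsl, 0.31 for Ddit3 and 0.74 for Rapgef5.

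In 11 the signs were opposite. The value was -3.79 for Mgl2, -4.42 for Apol7c, -3.90 for Cdh1, -2.93 for Kmo, -0.76 for Fcgr2b and -1.64 for Arg1 on the side where WT was lower under anti-CTLA-4, and 3.03 for Mgp, 3.65 for Mcpt1, 3.75 for Mcpt2, 2.20 for Col12a1 and 0.85 for Itgam where WT was higher under anti-CTLA-4.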

How the results depend on the processing

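The count of genes with an average difference was 5421. Under the other settings (DESeq2's Wald test, its size factors, total reads, the unstranded column, the replicate block, and no filter or no robust estimation) it ran from 4515 to 6869, and with 1 library left out from 3873 to 5372. It was 9321 for the average contrast of the fit of 4 groups, where host effects that depend on the antibody no longer enter the error, and 3512 without the antibody block. Of the 5421 genes, 5410 and 3507 were shared. That contrast also called Mgl2, Apol7c, Cdh1, Kmo, Mcpt2, Ptprc, Itgam, Fcgr2b, Arg1 and Chil3 (adjusted p from 3.46e-34 to 0.0305). The count called under each antibody in the same direction was 3511 (2796 to 4266 across settings, 2718 to 3516 with 1 library left out), and the count with an antibody-dependent difference 6194 (4928 to 6402, and 5044 to 6273). Replicate numbers did not pair the samples: same-numbered libraries deviated from their group means with correlations from -0.234 to 0.0607. With the replicate block the counts were 4515, 3360 and 5929, Acta2 (adjusted p = 0.0644) and Rfx5 (0.0827) lost their calls, and the microglia genes lower and the neutrophil genes higher came to 0. The block also left 5 cytokine genes higher and 4 cholesterol genes lower. Scaling by total reads moved the share called higher from 50.8% to 58.1%, and with it Acta2 (0.0635) and the microglia genes lower lost their calls. Without the antibody block, 26 of the 126 genes selected outside the lists described by counts alone lost their call (34 of all 148 selected), and 7 interferon-gamma genes were called. Vasn reversed to 0.11 in the unstranded column. Ms4a1 (1.34, adjusted p = 0.0931) lost its call there, as did Rfx5, and without the filter Mrc1 (adjusted p = 0.101), Acta2 (0.067), H2-DMa (0.0855) and Rfx5 (0.118); the causes were not tested. Without the filter, 9 endothelial and 4 cytokine genes were called higher. Depth limits the scarcest genes, such as Jchain and Ms4a1.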
